A study of Mus musculus with 16 samples.

Results

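The 10 circadian clock genes Arntl (also written Bmal1), Clock, Npas2, Per1, Per2, Per3, Cry1, Nr1d1, Nr1d2 and Dbp were followed in mouse liver RNA on 16 Affymetrix arrays. They were chosen by symbol: every probe set annotated to 1 of these genes alone was taken, and the one with the highest mean signal over the 16 arrays stood for its gene. The 10 genes had 24 of the 45101 probe sets and were 10 of 18193 genes with a probe set of their own. 9 of the 10 passed a filter that asked for a signal above the array's own median on at least 4 arrays, as did 13577 genes in all. Npas2 did not pass, and Cry1 passed with 4 arrays.

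Livers came from 4 arms of mice, taken on the day of partial hepatectomy (day 0) or on later days. In this operation a share of the liver is cut away and what is left regrows. In MET_KO_canertinib mice exon 16 of Met, the receptor of hepatocyte growth factor, had been deleted with a tamoxifen-inducible recombinase, and the diet held canertinib, an inhibitor of EGFR family kinases, aimed at 80 mg/kg. MET_FLOX_canertinib mice received the same diet without the deletion, MET_KO mice had the deletion without the drug, and MET_FLOX mice had neither. The labels give all 4 arms, controls included, the genotype Metff/ff:ERCre+/+ on a 129SV/C57BL/6 background and call the inhibition systemic, that is, not limited to hepatocytes. Each arm had 1 array at each of days 0, 2, 7 and 14, so there were no replicates of an arm at a day. Age, sex, the hour of harvest and whether an array held 1 animal or a pool are not given in the sources used here. Differences in the hour of harvest therefore cannot be told apart from those between arms and days, and every p-value measures only the spread between these arrays.

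The clock is a loop of transcription and repression that runs in nearly every cell. The proteins of Arntl and of Clock or its relative Npas2 pair up, bind E-box sequences and switch on the Per, Cry, Nr1d and Dbp genes. PER and CRY proteins then block that pair, NR1D1 and NR1D2 repress Arntl through elements shared with the ROR activators, and DBP activates genes with a D-box. In mouse liver Arntl, Clock and Npas2 transcripts are high around the end of the night, Cry1 follows a similar late course, and Dbp, Nr1d1, Nr1d2 and Per3 peak during the day. Livers taken at different hours thus differ in these transcripts, with Arntl high where Dbp is low.

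Promoters of some members follow because letters of the E-box, D-box and ROR element can be looked for in them. RefSeq (GRCm38.p6) held promoters for 9 of the 10 genes, in 13 entries, with none for Per2. The 250 bases before the start site were searched on both strands for the E-box CACGTG, the related E-prime box CACGTT, the D-box TTATGNAA and the ROR element, in which an A and a T stand at set places before GGTCA. Of 32851 mouse promoters of the same length, 6.02% held the first, 3.85% the second, 3.07% the third and 2.04% the last. Capitals mark the matches, which did not overlap each other, and a match is a run of letters, not a measured binding site. The window of Per3 lies at chr4:151044666-151044915 (minus strand), Per1 at chr11:69098699-69098948 (plus strand), Cry1 at chr10:85185055-85185304 (minus strand) and Nr1d1 at chr11:98775378-98775627 (minus strand), with Per1 and Cry1 chosen after their matches were seen.
Per3: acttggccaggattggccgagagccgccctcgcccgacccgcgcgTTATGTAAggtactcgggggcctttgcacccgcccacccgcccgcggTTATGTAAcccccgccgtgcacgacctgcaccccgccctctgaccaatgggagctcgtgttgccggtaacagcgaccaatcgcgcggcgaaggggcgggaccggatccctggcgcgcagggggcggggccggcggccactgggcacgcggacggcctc
Per1: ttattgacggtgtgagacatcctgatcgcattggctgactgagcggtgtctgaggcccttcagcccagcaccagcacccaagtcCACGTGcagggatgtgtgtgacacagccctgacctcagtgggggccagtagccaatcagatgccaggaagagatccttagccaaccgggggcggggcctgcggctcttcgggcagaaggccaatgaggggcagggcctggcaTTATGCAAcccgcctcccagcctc
Cry1: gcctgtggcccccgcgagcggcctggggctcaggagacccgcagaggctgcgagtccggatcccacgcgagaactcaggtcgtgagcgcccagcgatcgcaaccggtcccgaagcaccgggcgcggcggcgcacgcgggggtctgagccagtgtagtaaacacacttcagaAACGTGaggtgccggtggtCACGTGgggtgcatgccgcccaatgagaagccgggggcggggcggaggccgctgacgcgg
Nr1d1: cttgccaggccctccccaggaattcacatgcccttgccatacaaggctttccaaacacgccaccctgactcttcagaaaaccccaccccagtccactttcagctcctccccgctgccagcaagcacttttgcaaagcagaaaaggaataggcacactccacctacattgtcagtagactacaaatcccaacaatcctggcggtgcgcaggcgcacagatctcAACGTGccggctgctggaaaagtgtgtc
Per3 held 2 D-boxes, TTATGTAA, which began 205 and 158 bases before the start site. Per1 held an E-box at 166 and the D-box TTATGCAA at 24 bases, Cry1 an E-box at 60 and the reverse E-prime box AACGTG at 79, and Nr1d1 the same reverse box at 28. The windows of Arntl, Clock, Npas2, Nr1d2 and Dbp held none of the 4 motifs in these letters, nor did the second entry of Per1. Those of Arntl and Dbp had been planned for display and are not printed.

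Values are MAS5 signals, a brightness per probe set on a linear scale that had been brought to the same trimmed mean of 500 on every array. The array medians nevertheless fell into separate sets that no label names. 6 arrays, MET_KO and MET_FLOX at days 0, 2 and 7, had medians of 156.4 to 188.7 and are called the low set, and the other 10 had medians of 244 to 265 and are called the high set. All 4 arrays of day 14 lay in the high set. The ratio of the 3' to the 5' Gapdh probe set, a measure of RNA integrity, was 0.95 to 2.245 on the canertinib arrays and 0.765 to 0.869 on the others. The same ratio for Actb overlapped, at 1.585 to 3.39 on the canertinib arrays and 1.303 to 1.875 on the others. Met itself ranged over 982 to 1422 in MET_KO_canertinib, 1118 to 2014 in MET_FLOX_canertinib, 1011 to 2066 in MET_KO and 1041 to 1962 in MET_FLOX. Whether its probe set covers the deleted exon is not known here, so these signals do not check the deletion. All 8 hepatocyte markers were bright on every array (lowest signal 8743).

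Among the activators, Arntl was read by 2 probe sets that disagreed. Its brighter probe set gave signals at days 0, 2, 7 and 14 of 863, 873, 999.5 and 980.1 in MET_KO_canertinib and 1004, 992, 985 and 842 in MET_FLOX_canertinib. Without canertinib it gave 524, 335, 470.4 and 1001 in MET_KO and 525, 367, 443 and 1046 in MET_FLOX. The low set lay at 335 to 525 and the high set at 842 to 1046, so the sets did not overlap, and the log2 signal followed the log2 array median with r = 0.98 over 16 arrays. The dimmer probe set gave 188, 403, 574 and 198 in MET_KO_canertinib and 295, 104, 43.8 and 458 in MET_FLOX_canertinib. Without the drug it gave 1547, 291, 806 and 267 in MET_KO and 560.3, 124, 604 and 55.3 in MET_FLOX. Its range was 35.3-fold, against 3.13-fold for the brighter one. It was highest on the day 0 array of MET_KO and lowest on the day 7 array of MET_FLOX_canertinib, its sets overlapped, and its r with the array median was -0.44. Across arrays the probe sets of this one gene had r = -0.40 with each other. Both are therefore carried through the results, the second as a choice made after the values were seen.

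**Figure D1:**
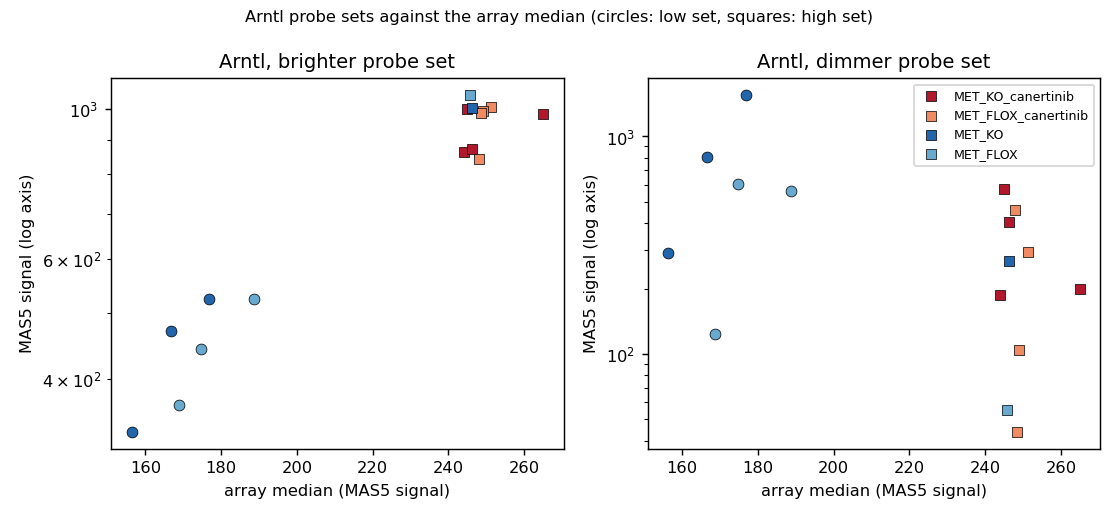
MAS5 signal of each Arntl probe set (log axis) against the median signal of the array, 1 point per array, coloured by arm, with circles for the low set and squares for the high set. The brighter probe set (left) parts into 335 to 525 and 842 to 1046 with the array median, while the dimmer one (right) spreads from 43.8 to 1547 and overlaps between sets.

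Clock, the partner of ARNTL, had signals of 264, 295, 381 and 190.1 in MET_KO_canertinib and 132, 299.8, 342 and 288 in MET_FLOX_canertinib by its main probe set. Without canertinib the signals were 736, 849, 519 and 315 in MET_KO and 512, 746, 701 and 164 in MET_FLOX. The low set, at 512 to 849, lay above the high set, at 132 to 381, the opposite of Arntl. Its other 3 probe sets overlapped between sets. Npas2, which can stand in for CLOCK, was dim, and its signals of 30.5, 26.7, 23.3 and 26.3 in MET_KO_canertinib and 64.8, 70.7, 27.6 and 123 in MET_FLOX_canertinib and of 199, 10.5, 119 and 21.5 in MET_KO and 58.9, 56.6, 74.0 and 31.1 in MET_FLOX rose above the array median on 1 array. That array, day 0 of MET_KO, was also the array with the most signal for the dimmer Arntl probe set and for Cry1. The other Npas2 probe set did not share this high value, with 13.7 on that array. Its range was 10.3 to 65.0, and it rose above the array median on 0 arrays.

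The repressors of the Per and Cry families varied by unequal amounts. Per1, which responds quickly to hormones and feeding as well as to the clock, had 626, 875, 478 and 1729.7 in MET_KO_canertinib and 562, 1283, 1368 and 312 in MET_FLOX_canertinib. In the arms without canertinib it had 219.7, 653, 551 and 89.1 in MET_KO and 191, 179, 486 and 785 in MET_FLOX. Its highest signal, in MET_KO_canertinib, and its lowest, in MET_KO, were both at day 14, a 19.4-fold range. The SD of its log2 signal over 16 arrays was 1.12, higher than for 96.4% of the 13577 genes, whose median SD was 0.49. Per2 was steadier by its main probe set, from 209 on the day 0 array of MET_KO to 618 on the day 14 array of MET_KO_canertinib, with an SD of 0.43. Its other kept probe set had different extremes, 156 at day 14 of MET_KO and 586.5 at day 0 of MET_KO_canertinib, with an SD of 0.51. At day 14 of MET_KO the main one had 463.5. With the log2 array median the main one had r = 0.74 and the other -0.03.

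Per3, whose promoter held the 2 D-boxes, had 778, 715, 622 and 658 in MET_KO_canertinib and 466, 648, 601 and 681 in MET_FLOX_canertinib. Without the drug it had 234, 413, 285 and 799 in MET_KO and 305, 391, 210.4 and 582 in MET_FLOX. These signals are those of its main probe set, and its other probe sets overlapped between the array sets. By the main one the low set at 210.4 to 413 did not overlap the high set at 466 to 799, as for Arntl and Clock. Such a complete parting of the sets was found for 15.8% of all genes (2145 of 13577). Cry1, a strong repressor of the activator pair, was dim at 67.7, 99.7, 197 and 216 in MET_KO_canertinib and 108, 104, 30.5 and 90.0 in MET_FLOX_canertinib. In the undrugged arms it had 347, 205, 129.8 and 90.3 in MET_KO and 247, 212, 156 and 71.8 in MET_FLOX. It was highest at day 0 of MET_KO and lowest at day 7 of MET_FLOX_canertinib, the same arrays as for the dimmer Arntl probe set.

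Nr1d1, a nuclear receptor that represses Arntl, had 1627, 1725, 1484 and 748 in MET_KO_canertinib and 1376, 1582, 968 and 1321 in MET_FLOX_canertinib. Its signals without canertinib were 1031, 1035, 1385 and 3276 in MET_KO and 1876, 906, 1295 and 1639.8 in MET_FLOX. At day 14 it was both lowest, in MET_KO_canertinib, and highest, in MET_KO, a 4.38-fold range. Nr1d2, its close relative, was the brightest and least variable member by the main probe sets. It ran from 1957 at day 14 to 4670.1 at day 2 of MET_KO, with an SD of 0.36. Its other probe set, also kept, was dimmer and varied more, with a 14.29-fold range and an SD of 0.84. That probe set ran from 45.2 at day 0 of MET_KO to 645.8 at day 14 of MET_FLOX.

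Dbp, an output of the clock that activates D-box genes, had 3027, 1183, 616 and 581 in MET_KO_canertinib and 1758, 2158, 2321 and 938 in MET_FLOX_canertinib. Without canertinib it had 319, 2746, 1021 and 2726 in MET_KO and 769, 1181, 591 and 4469 in MET_FLOX. The range was 13.99-fold, from day 0 of MET_KO to day 14 of MET_FLOX, and the SD of 1.06 exceeded that of 95.1% of genes. The second Dbp probe set had its lowest and highest signals on the same arrays, 190.1 and 2485, and followed the first with r = 0.89. Within an arm Dbp spanned 581 to 3027 in MET_KO_canertinib, 938 to 2321 in MET_FLOX_canertinib, 319 to 2746 in MET_KO and 591 to 4469 in MET_FLOX, so all 4 arms overlapped.

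**Figure D2:**
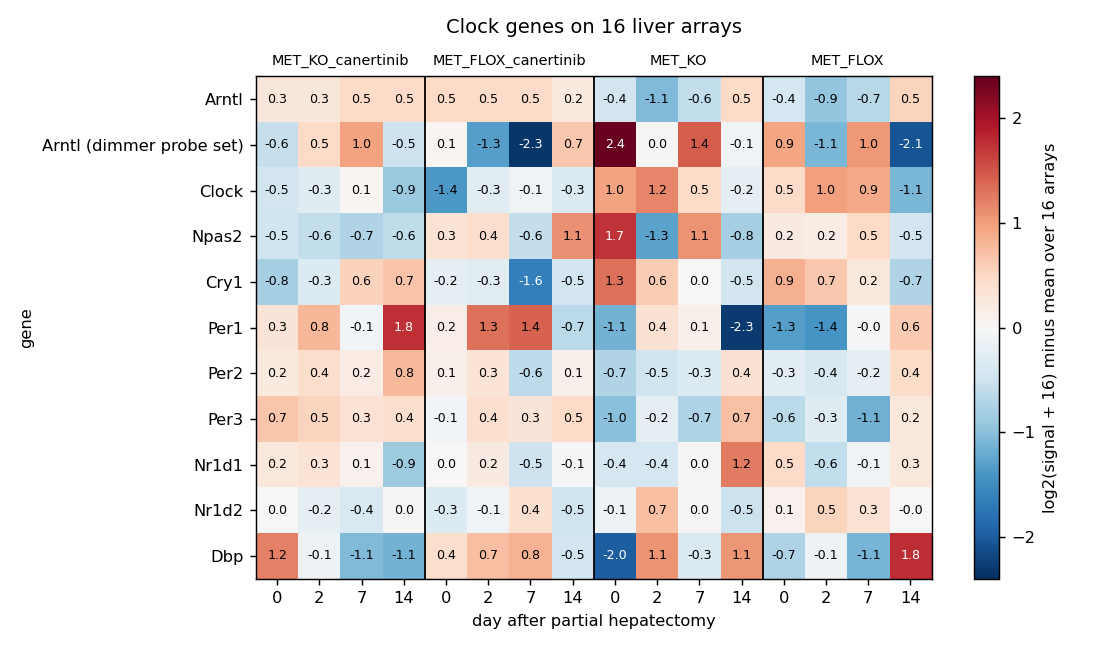
Log2(signal + 16) of each gene minus its mean over the 16 arrays, with arrays in columns by arm and day and red for higher values. The second row is the dimmer Arntl probe set, whose extremes of 2.38 at day 0 of MET_KO and -2.33 at day 7 of MET_FLOX_canertinib stand opposite to Dbp at -1.97 and 0.83.

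Canertinib arms, taken over both genotypes and 4 days, were compared with the arms without the drug to ask how far clock transcripts moved with EGFR inhibition. Arntl (brighter probe set), Per3 and Per1 were higher and Clock was lower in the canertinib arms, 4 of the 9 genes tested. Of all 13577 genes 34.6% were called in this comparison, 24% as higher and 10.6% as lower, so the share among clock genes lay near that of the array as a whole. The median difference was 0.10 over the 9 genes and 0.14 over all genes on the log2 scale. The balance of directions depended on the scaling. As deposited, 3255 genes were called higher and 1444 lower, and with each array centred on its median 1347 were called higher and 3359 lower. Under that centring the medians were -0.19 over the 9 genes and -0.15 over all genes, and 2 members were called higher, Arntl and Per3, and 2 lower, Clock and Nr1d2 (-0.56, adjusted p = 0.0271). Calls came from limma with arm and day as terms and a Benjamini-Hochberg adjusted p below 0.05 over all genes.

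Arntl averaged 9.90 ± 0.11 with canertinib and 9.13 ± 0.60 without it (log2, SD, n = 8 arrays each), a difference of 0.78 (SE 0.19, limma adjusted p = 0.00815). Per3 averaged 9.36 ± 0.21 with the drug and 8.58 ± 0.63 without it, a difference of 0.78 (SE 0.19, adjusted p = 0.00953). Clock averaged 8.12 ± 0.46 with and 9.04 ± 0.77 without canertinib, a difference of -0.92 (SE 0.25, adjusted p = 0.0140). These 3 are the members whose main probe sets parted completely between the array sets. Per1 averaged 9.64 ± 0.83 with and 8.38 ± 1.04 without it, a difference of 1.26 (SE 0.44, adjusted p = 0.0386). The Per1 call ended when any 1 of 11 arrays was left out, with adjusted p of 0.0605 to 0.0937. Those arrays were days 0, 2 and 14 of MET_KO_canertinib, days 0, 2 and 7 of MET_FLOX_canertinib, days 0 and 14 of MET_KO and days 0, 2 and 7 of MET_FLOX. It also ended with centring on the array median (adjusted p = 0.0990), quantile normalization (0.0806) and no variance trend (0.0549), and with the mean of a gene's probe sets Arntl (0.07, adjusted p = 0.853) and Clock (-0.60, 0.108) did not pass. The Gapdh ratio was higher on every canertinib array than on any other, while the Actb ratio overlapped between them. The part of RNA integrity in these differences was not tested. Per2 (0.39, adjusted p = 0.0887), Cry1 (-0.63, 0.214), Nr1d2 (-0.27, 0.186), Nr1d1 (-0.13, 0.728) and Dbp (0.10, 0.891) did not pass.

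The other probe sets of the members were looked at with each kept probe set as its own feature, an alternative added after the data were seen. The same 4 probe sets passed, as did 34.3% of 22317 probe sets. Arntl was the member whose kept probe sets differed in sign, with -0.64 for the dimmer one (adjusted p = 0.342). The other kept probe sets had the sign of the main one, at 0.51, 0.57 and 0.52 for Per3, -0.66 and -0.21 for Clock, 0.25 for Per2, -0.13 for Nr1d2 and 0.16 for Dbp, and did not pass. Among probe sets that failed the filter on low signal, Clock had 0.50, Per2 -0.29 and Per3 0.56 and -0.66, fitted without the filter. Npas2, fitted in the same way, had -0.28 by its main probe set (adjusted p = 0.605) and 0.30 by the other (0.352).

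Day by day, Arntl and Per3 were higher and Clock was lower with the drug in both genotypes at days 0, 2 and 7, and at day 14 their means over the genotypes were near 0. Canertinib minus no canertinib, as the mean of both genotypes on the log2 scale, was 0.81, 1.37, 1.09 and -0.17 for Arntl at days 0, 2, 7 and 14. Per3 had 1.13, 0.74, 1.26 and -0.03, and Clock had -1.63, -1.37, -0.72 and 0.04. The Clock mean at day 14 combined -0.68 in the knockout pair and 0.76 in the flox pair. Day 14 is the day at which all 4 arrays lay in the high set. Per1 had 1.47, 1.57, 0.63 and 1.38, but at day 14 the genotypes were opposed, with 4.05 between MET_KO_canertinib and MET_KO and -1.29 between MET_FLOX_canertinib and MET_FLOX. Dbp had 2.18, -0.17, 0.61 and -2.22, so the largest differences, at days 0 and 14, ran in opposite directions. At day 14 Dbp was lower with the drug in both genotypes, by -2.20 in the knockout pair and -2.23 in the flox pair.

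**Figure D3:**
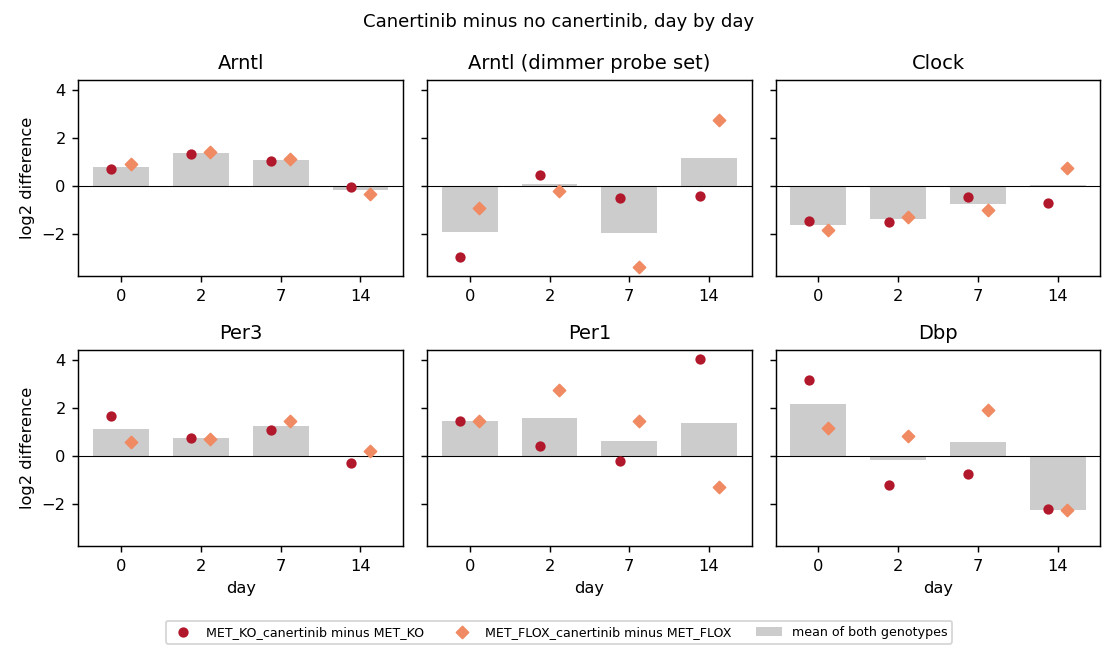
Log2 difference of the canertinib array minus the array without the drug at each day, in red circles for the knockout pair and orange diamonds for the flox pair, with grey bars for their mean. Arntl (brighter probe set), Clock and Per3 differ at days 0, 2 and 7 and have means of -0.17, 0.04 and -0.03 at day 14, whereas Dbp runs from 2.18 at day 0 to -2.22 at day 14.

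When the array set was added to the model, so that day 14 alone estimates the drug difference, no clock gene passed (0 of 9, limma, against 0.11% of all genes). Arntl then had -0.17 (adjusted p = 0.827), Per3 -0.03 (0.984) and Clock 0.04 (0.985), and Per1 had 1.38 (0.597). Dbp had -2.22 (SE 0.73, unadjusted p = 0.00984, adjusted p = 0.226) and Nr1d1 -1.21 (SE 0.41, adjusted p = 0.231), the 2 members with an unadjusted p below 0.05. Between the low set and the high set in that fit Arntl differed by -1.26 (adjusted p = 0.0252) and was the 1 member called, beside 5.58% of all genes.

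No clock gene passed in the comparisons of single arms (limma, 0 of 9 each). Between MET_KO_canertinib and MET_KO 8.23% of all genes were called, and 5 clock genes had an unadjusted p below 0.05: Arntl (0.77, adjusted p = 0.0712), Per3 (0.81, 0.0688), Clock (-1.004, 0.0774), Per2 (0.69, 0.0775) and Per1 (1.43, 0.132). Between MET_FLOX_canertinib and MET_FLOX 6.71% were called, and 3 clock genes had an unadjusted p below 0.05: Arntl (0.78, adjusted p = 0.0758), Per3 (0.74, 0.0936) and Clock (-0.84, 0.131). Between MET_KO_canertinib and MET_FLOX, the contrast of both blockades with none, 2.88% were called, and Per3 (0.95, adjusted p = 0.0642) and Arntl (0.74, 0.101) had an unadjusted p below 0.05. These comparisons share arms, so they are not independent of each other. Leaving out a single day 14 array brought up to 2 clock genes past the threshold. Without day 14 of MET_KO_canertinib or of MET_KO these were Arntl and Per3 against MET_KO and Per3 against MET_FLOX. Without day 14 of MET_FLOX_canertinib they were Arntl and Clock against MET_KO, and without day 14 of either flox arm Arntl and Clock in the flox pair. The shares of all genes called in these settings are not given here.

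No clock gene passed in the comparisons of Met genotype. Knockout arms against flox arms gave 0 of 9 (limma, 0% of all genes called, no member with an unadjusted p below 0.05), with the largest differences in size for Cry1 at 0.40 (SE 0.38) and Dbp at -0.33 (SE 0.50). MET_KO against MET_FLOX gave 0 of 9 (0% of all genes), and MET_KO_canertinib against MET_FLOX_canertinib 0 of 9 (0.00737%), again with no member below 0.05 unadjusted. The interaction of genotype and canertinib was called for 0 of 9 (0.0147% of all genes), and the smallest unadjusted p was 0.103, for Per2 (0.60, SE 0.34). The intervals are wide: the SE of the Dbp difference between MET_KO_canertinib and MET_FLOX_canertinib was 0.70 around -0.66.

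The days were compared over the 4 arms. No member passed for day 2 against day 0 (0.383% of all genes called), day 7 against day 0 (0.00737%), day 14 against day 0 (0.081%) or day 14 against day 2 (1.71%), in limma. At an unadjusted p below 0.05 the counts were 0, 0, 2 and 3 of 9. Day 14 against day 2 came nearest, with Clock at -1.03 (SE 0.35, adjusted p = 0.101) and Arntl at 0.74 (SE 0.26, adjusted p = 0.108). Without the day 14 array of MET_FLOX_canertinib these passed, Arntl at 1.002 (adjusted p = 0.0284) and Clock at -1.39 (0.0260). The share of all genes called without that array is not given here. Arrays of one day differed widely among arms: at day 0 Dbp ran from 319 to 3027 and the dimmer Arntl probe set from 188 to 1547, and at day 14 they ran from 581 to 4469 and from 55.3 to 458.

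The opposition of Arntl and Dbp that marks the liver clock was examined over the 16 arrays. By the dimmer Arntl probe set, a choice made after its values were seen, the signals were opposed, with Pearson's r = -0.74 (permutation p = 0.00105, adjusted 0.0236 over 45 pairs) and Spearman's rho = -0.69 (permutation p = 0.00382, adjusted 0.0573). Without the day 7 array of MET_FLOX_canertinib and the day 0 array of MET_KO, the farthest from the median, r was -0.66. Within the array sets r was -0.70 (6 arrays) and -0.66 (10 arrays). By the brighter probe set r was 0.29 (permutation p = 0.268, adjusted 0.392), rho was 0.33 (permutation p = 0.209), and r was 0.59 without day 2 of MET_KO and of MET_FLOX. Since that probe set falls into separate clusters, r is also given within the sets, -0.83 in the low set and 0.23 in the high set. The brighter probe set followed the array median with r = 0.98 over 16 arrays. The part of array scaling in its r with Dbp was not tested.

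**Figure D4:**
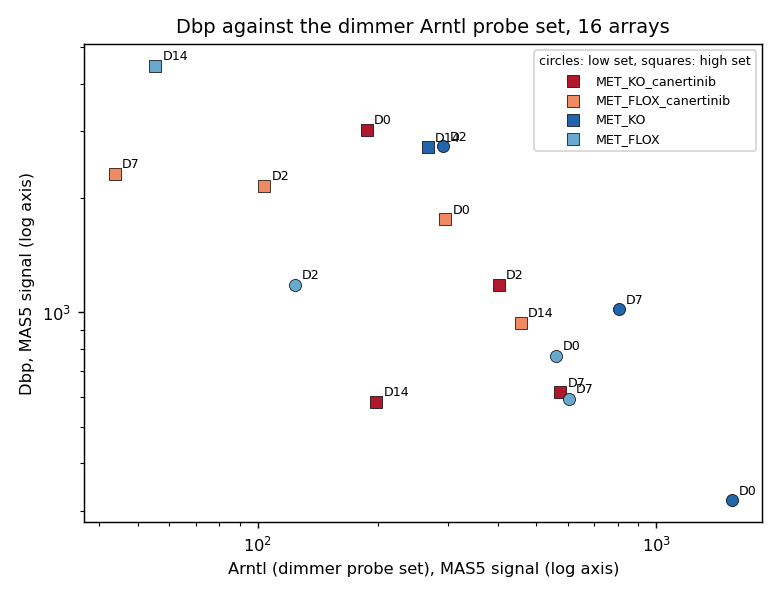
MAS5 signal of Dbp against that of the dimmer Arntl probe set, both on log axes, with 1 point per array, labelled by day (D) and coloured by arm, circles for the low set and squares for the high set. Dbp is 2321 and 4469 where Arntl is 43.8 and 55.3, and 319 where Arntl is 1547, and arrays of both sets lie along the same course.

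Other pairs of members were set against each other in the same way. Arntl and Npas2 had r = -0.25 by the brighter probe set (permutation p = 0.353, adjusted 0.454, rho = -0.25, permutation p = 0.344), with 0.79 in the low set and -0.34 in the high set. By the dimmer probe set r was 0.52 (permutation p = 0.0382, adjusted 0.108, rho = 0.41), and 0.29 without the 2 farthest arrays. Arntl and Nr1d1 had r = 0.33 (permutation p = 0.213, adjusted 0.354, rho = 0.43, permutation p = 0.102), 0.63 in the low set and 0.02 in the high set, and 0.08 by the dimmer probe set (permutation p = 0.764). Dbp and Per3, the gene with 2 D-boxes, had r = 0.54 (permutation p = 0.0324, adjusted 0.0858, rho = 0.42, permutation p = 0.108), 0.85 in the low set and 0.03 in the high set, and 0.26 without day 7 of MET_FLOX and day 0 of MET_KO. By the main Per3 probe set that relation thus rested on those arrays and on the low set. The other kept Per3 probe sets had r = 0.74, 0.3 and 0.46 with Dbp over all arrays. Whether their relation to Dbp held within the array sets was not tested. Per1, whose printed window also held a D-box, had r = 0.19 with Dbp (permutation p = 0.482, adjusted 0.516). Its r was 0.48 in the low set, -0.15 in the high set and 0.63 without day 14 of MET_KO and of MET_KO_canertinib. With the brighter Arntl probe set 8 of the 45 pairs had an adjusted permutation p below 0.05, and with the dimmer one 5 did. 7 of the 8 joined genes among Arntl, Clock, Per2, Per3 and Nr1d2, and the remaining one, named after its value was seen, was Cry1 with Dbp. Several of the 7 did not hold within the array sets: Arntl and Per3 had r = 0.77 over all arrays but -0.73 in the low set and -0.51 in the high set, and Arntl and Per2 had 0.69 but -0.05 and 0.03. Clock and Per3 had -0.67 over all arrays but 0.27 in the low set and 0.60 in the high set. Cry1 and Dbp had r = -0.70 (permutation p = 0.0024, adjusted 0.0239), rho = -0.70 (adjusted 0.0471), and r = -0.41 in the low set and -0.74 in the high set.

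A single number per array put the limbs of the clock against each other. The limb contrast was the mean centred log2 value of Arntl, Clock, Npas2 and Cry1 minus that of Nr1d1, Nr1d2, Dbp and Per3. A high value means more of the late-night transcripts relative to the day transcripts, not more of them as such. At day 14 of MET_KO_canertinib it was 0.29, with means of -0.1 for the late limb and -0.39 for the day limb. Day 0 of MET_KO stood highest at 1.78, followed by day 7 of MET_FLOX at 0.74, day 7 of MET_KO at 0.50 and day 0 of MET_FLOX at 0.48. Day 14 of MET_FLOX was lowest at -1.0, with day 0 of MET_KO_canertinib at -0.90, day 14 of MET_KO at -0.86 and day 7 of MET_FLOX_canertinib at -0.72. With the dimmer Arntl probe set the same 4 arrays led in the same order, and the range widened to 2.48 and -1.66. The contrast is a description with no test. It includes Npas2, which did not pass the filter on low signal, and genes that part with the array sets: the 5 highest arrays all belonged to the low set. On those arrays the brighter Arntl probe set lay below its own mean, at -0.43 to -0.93. Within the high set the contrast spanned 1.33. Members of a limb did not all vary together over the 16 arrays. Arntl by the brighter probe set had r = -0.88 with Clock, -0.58 with Cry1 and -0.25 with Npas2. By the dimmer one these were 0.44, 0.65 and 0.52. Clock, Cry1 and Npas2 had 0.22 to 0.54 with each other. Nr1d2 had -0.56 with Nr1d1, -0.43 with Per3 and 0.11 with Dbp, and the other day pairs had 0.29 to 0.54.

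Arrays of one arm lay far apart on this scale. MET_KO_canertinib had -0.90, -0.37, 0.33 and 0.29 at days 0, 2, 7 and 14, and MET_FLOX_canertinib had -0.22, -0.22, -0.72 and 0.27. MET_KO had 1.78, -0.44, 0.50 and -0.86, and MET_FLOX had 0.48, 0.34, 0.74 and -1.0. At day 0 both canertinib arms were below 0 and both arms without the drug above it, and at day 14 the signs were the other way round. The day 14 opposition was seen within the high set, whereas at day 0 the drug and the array set coincide.

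**Figure D5:**
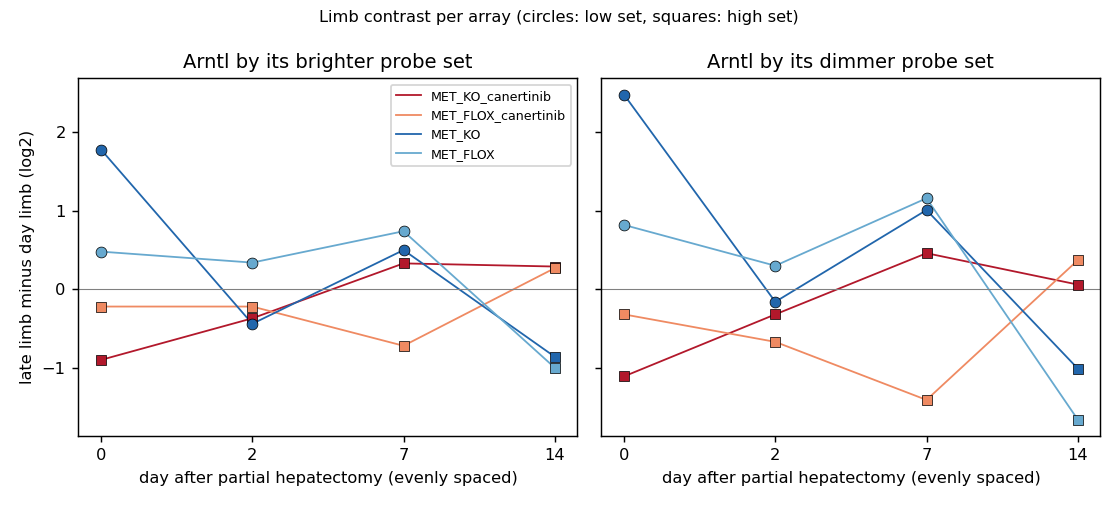
Limb contrast (log2, late-night genes minus day genes) at days 0, 2, 7 and 14, 1 line per arm, with Arntl by its brighter (left) or dimmer (right) probe set and circles for the low set. MET_KO at day 0 is highest in both panels (1.78 and 2.48) and MET_FLOX at day 14 lowest (-1.0 and -1.66).

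The genes with patterns most like the members were ranked by Pearson's r of log2 signals over 16 arrays among 13576 genes. For the brighter Arntl probe set these were Cyfip2, Atp1b2, Usp25, Ccdc83 and Ccdc134, all at 0.98, and the most opposed were Shoc2 (-0.97), Brk1, Taf11 (both -0.96), Asnsd1 and Grsf1 (both -0.95). No clock gene was among them. The dimmer probe set was closest to Asap2 (0.93), Slc35d2 (0.87), C730049O14Rik, Stra6l (both 0.86) and Tmem218 (0.83). It was most opposed to Slc5a6 (-0.88), D630004K10Rik (-0.82), Tef (-0.80), Ccnyl1 and 1700048F04Rik (both -0.79). Tef encodes a relative of DBP that binds the same D-box, and Dbp itself stood at place 13564 of 13576 and Cry1 at place 108. The other members ranked were spread between these, Clock at 1002, Nr1d1 at 4726 (r = 0.08), Per2 at 9194, Nr1d2 at 9448 (-0.28), Per1 at 12147 and Per3 at 13182. Dbp was closest to Casp8 (0.90), A1cf (0.81), R3hdm4 (0.80), Gpaa1 (0.78) and Zbed4 (0.76), and most opposed to Btg1 (-0.91), Tab2 (-0.90), Pgk1 (-0.88), Efnb1 (-0.83) and Pnrc1 (-0.82).

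Of 14 further clock genes 11 were measured. In the canertinib comparison 1 rose, Csnk1d, a kinase that marks PER proteins for decay (0.55, SE 0.12, adjusted p = 0.00512), and 1 fell, Fbxw11, part of the ubiquitin ligase that destroys them (-0.66, SE 0.22, adjusted p = 0.0339), beside the 34.6% called overall. Csnk1d also passed between MET_KO_canertinib and MET_FLOX (0.69, adjusted p = 0.0433) and between MET_FLOX_canertinib and MET_FLOX (0.82, adjusted p = 0.0261). None of these calls was kept once the array set was added: with canertinib Csnk1d had 0.57 (adjusted p = 0.315) and Fbxw11 turned to 0.63 (adjusted p = 0.225), and the other Csnk1d differences had adjusted p of 0.289 and 0.260. Fbxw11 also parted completely between the sets, at 2054 to 2988 in the low set and 813 to 1769 in the high set. Their median difference with canertinib was 0.17. Largest in absolute r with the limb contrast over 16 arrays were Tef (-0.65), Fbxw11 (0.65), Hlf, the third member of the DBP family (-0.51), and Nfil3, a repressor at the D-box (0.40). Tef ran from 2186 at day 0 of MET_KO to 5246 at day 7 of MET_FLOX_canertinib, and its r was -0.91 in the low set and -0.18 in the high set. The signs of Fbxw11 and Hlf did not hold within the low set, where r was -0.18 and 0.18, against 0.50 and -0.22 in the high set.

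Of 11 liver genes under clock control 10 were measured, and none passed in any of the 12 comparisons with arm and day as terms. With the array set added, Noct passed for day 2 against day 0 (1.60, SE 0.32, adjusted p = 0.0488). Usp2, a deubiquitinase with a strong daily rhythm (-0.61), Alas1, the first enzyme of haem synthesis (-0.47), Wee1, a mitotic kinase switched on through E-boxes (-0.43), and Nampt, of NAD synthesis (-0.30), were largest in absolute r with the limb contrast. All 4 were negative, as Dbp is by construction. Usp2 ran from 421 at day 0 of MET_KO to 3664 at day 7 of MET_FLOX_canertinib, and Alas1 from 1557 to 14626 on the same arrays. In the low set r was -0.94 for Usp2, -0.84 for Alas1 and -0.85 for Wee1, and in the high set -0.42, -0.45 and -0.57. Other genes of the list, named after their values were seen, ran the opposite way in the low set, Lpin1 at 0.90, Gys2 at 0.80 and Upp2 at 0.61, and had -0.11, -0.97 and -0.55 in the high set.

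Markers of the cell types of liver were set beside the limb contrast. Over 16 arrays the summed markers of hepatocytes (8 of 8 measured) had r = -0.27 with it, those of neutrophils (5 of 6) -0.15, of Kupffer cells and macrophages (5 of 5) -0.13 and of endothelium (4 of 4) 0.18. Summed neutrophil signal was 2423 to 43172 on canertinib arrays and 1439 to 4573 on the others, and the highest S100a8 and S100a9 signals were at day 14 of MET_KO_canertinib, where Per1 was also highest. Their part in the Per1 result was not tested. Summed hepatocyte signal was 268963 to 487482 on canertinib arrays and 133484 to 337258 on the others. In whole liver, fewer cells of a type and less RNA per cell cannot be told apart.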

How the data were processed

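The deposited values are MAS5 signal per probe set on a linear scale, per the submitters' processing notes. Per the labels, 6 ug of total RNA was extracted with Trizol and biotin-labelled. No MAS5 version is stated in them. On each array the mean signal was 500 once 2% of probe sets at either end were set aside, and detection calls were not used. Of 45101 probe sets, 64 were controls, 34945 named 1 gene, 932 several and 9160 none, and only those with 1 gene were used, through GEO's platform annotation. Log2 was taken of the deposited signal plus 16, a scale that understates changes of dim genes. Probe sets above their array's median on at least 4 arrays were kept (22317). A gene was read by its probe set of highest mean (13577 genes). Limma 3.58.1 in R 4.3.3 was fitted with arm and day as terms, a trend of variance with intensity (9 residual degrees of freedom), two-sided, with Benjamini-Hochberg adjustment over all genes, and was tested on simulated data. Day is thus a block in every comparison of arms. Differences are the group named first minus the other. Pair correlations used 100000 permutations (scipy 1.17.1), adjusted over 45 pairs. All 10 members were named. From the other lists, called genes and up to 4 with the largest absolute correlation with the limb contrast were named, and for Arntl and Dbp the 5 most like and 5 most opposed genes. Lists, tests and members were chosen with earlier results of these data known. The number of arrays limits precision. Alternatives covered pseudocounts of 1 and 64, centring, quantile normalization, no filter, the mean of probe sets, the array set as a term, no trend, and arrays or day 14 left out.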

Additional observations from a re-analysis of the deposited data

Results flagged for a closer look

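In each of the 4 arms the 4 arrays of every member, and of the second Arntl probe set, were checked for one that stood apart by Dixon's ratio at its 95% critical value, in 44 groups. Chance gives about 1 such array in 20 groups, and 2 were found. Cry1 had a signal of 30.5 at day 7 of MET_FLOX_canertinib, where the other 3 arrays of that arm had 90.0 to 108, a gap of 0.838 of the range. The brighter Arntl probe set had 842 at day 14 of the same arm, against 985 to 1004 on its other arrays, a gap of 0.888 of a narrow range.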

How the results depend on the processing

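In the canertinib comparison the count of 4 became 2 with the mean of all kept probe sets of a gene and 0 once the array set was a term, whether each gene or each kept probe set was the feature, and leaving out 1 array gave 3 to 4. With the array set as a term Arntl changed sign to -0.17, Clock to 0.036, Per3 to -0.027, Cry1 to 0.70, Nr1d2 to 0.035 and Dbp to -2.22; by construction this is the day 14 difference. Centring on the array median turned Dbp to -0.19 and brought Nr1d2 past the threshold, and leaving out 1 array moved Dbp between -0.29 and 0.44 and Nr1d1 between -0.257 and 0.093. Without day 14 Nr1d1 was 0.24 and Cry1 passed at -1.07. The counts of 0 became 4 for MET_KO_canertinib against MET_FLOX, 3 against MET_KO and 4 for the flox pair without day 14. In that setting every canertinib array lay in the high set and every other array in the low set, so drug and array set coincide. The count against MET_KO became 1 with centring (Clock, beside 1689 of 13577 genes) or with the mean of probe sets (Per2, beside 1377). With 1 array left out the counts were 0 to 1, 0 to 2 and 0 to 2 in the same order, and 0 to 2 for day 14 against day 2. The shares of all genes called without day 14 or without 1 array are not given here. Pairs past the threshold numbered 8, and 5 with the mean of probe sets or the dimmer Arntl probe set. The range of the limb contrast was 2.78, and 3.92 and 4.14 in these settings and 1.33 within the high set. Causes other than those given by construction were not tested. No paired analysis was possible beyond the block already in the model, because the numbers that arms share are the days.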
